A study of Medicago truncatula with 48 samples.

Results

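The 4 libraries described here were prepared from endosperm of Medicago truncatula seeds at stage S2, 2 under heat stress and 2 under standard temperature, and were taken by tissue, stage and temperature from the 48 libraries of the series. All plants were of the genotype A17, the reference line of this model legume. The heat-stressed plants were kept at 26 °C by day after flowering and their seeds were sampled 17 days after pollination (DAP), against 20 °C and 26 DAP for the standard plants. For the nights, the treatment text of the sample labels gives 14 °C under heat stress and 19 °C under standard temperature. The methods of the study instead give nights that were warmer under heat stress than under standard temperature. Both the direction and the size of the night difference are therefore not settled here. The 2 temperatures were held in separate culture rooms, and each library was made from a pool of at least 50 dissected endosperms. Stage S2 follows the acquisition of desiccation tolerance, and was reached earlier under heat stress. Age, culture room and temperature therefore cannot be told apart in this comparison. The remaining libraries of the series, of endosperm at S1, S3 and S4 and of embryo and seed coat, are used only where they place the S2 endosperm values.

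The endosperm is a product of fertilization that lies between the embryo and the maternal seed coat. It feeds the young embryo, and in Medicago a thin layer of living endosperm remains around the embryo of the mature seed, where its cell walls rich in galactomannan have to weaken before the radicle can emerge. During maturation endosperm cells also pass through the programme that prepares the seed for drying, in which storage and protective proteins accumulate. The 44473 transcripts of the table are given by locus identifiers that the files do not pair with gene names, and 0 of them matched the gene table provided, so that transcripts are described below by groups, and only 4 are given by identifier, with no statement on their function.

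The 4 libraries were of similar depth. Their totals were 18164757 and 18091820 estimated counts under heat stress, against 18412732 and 17864494 under standard temperature, and 31310 and 31221 transcripts were detected under heat stress, against 31214 and 31236. The median absolute difference of a transcript between replicates was 0.15 on the log2 scale for the heat stress pair and 0.12 for the standard pair, and 0.29 to 0.31 between a heat stress and a standard library. Per degree of freedom, the chi-square of the counts was 3.88 between the heat stress replicates and 1.84 between the standard replicates, above the value of 1 that sampling alone gives, and 77.9 to 86.3 across the temperatures. Nothing in the labels says that replicates came from separate sets of plants, and p-values measure only the spread between these samples.

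Endosperm S2 differed between the temperatures for 3542 of 26400 transcripts tested, of which 2369 were higher and 1173 were lower under heat stress (edgeR quasi-likelihood test, adjusted p-value below 0.01). These calls are 13.4% of the transcripts tested, 8.97% for the higher and 4.44% for the lower, and 66.9% of them were higher. The transcripts that rose did so by larger factors than those that fell declined. A change of at least 2-fold was found for 1437 of the higher and 313 of the lower transcripts, one of at least 4-fold for 819 and 49, and one of at least 8-fold for 370 and 15. The median log2 fold change was 1.35 among the higher and −0.65 among the lower transcripts. The transcripts that rose had a median level of 10.1 CPM, counts scaled to a common library total, in heat stress libraries and 3.66 CPM in standard libraries. The transcripts that fell had a median of 19.3 CPM in heat stress libraries and 29.5 CPM in standard libraries, and over all transcripts tested the medians were 6.70 CPM in heat stress libraries and 6.21 CPM in standard libraries. At the level of single libraries, both heat stress values lay above both standard values for 34.3% of all transcripts tested and below them for 32.4%, 66.7% in both directions.

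These counts moved with scaling and with single libraries. Without scaling for composition (library size only) the median of all transcripts shifted to −0.17 on the log2 scale, against 0.01 with TMM scaling, and 5264 transcripts were called, of which 32.8% were higher, so that directions in the following are relative to the median transcript. Leaving out 1 library gave 1671 calls without heat stress replicate 1, 1964 without heat stress replicate 2, 1568 without standard replicate 1 and 1545 without standard replicate 2.

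**Figure D1:**
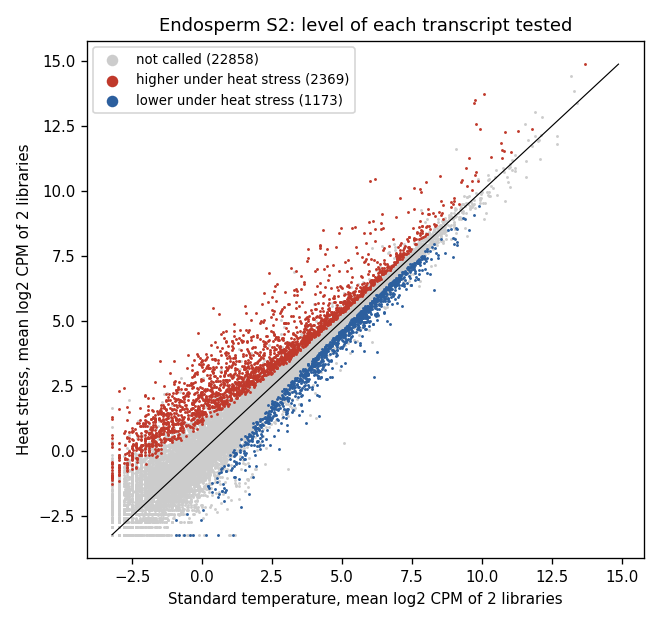
Level of each of the 26400 transcripts tested at endosperm S2, as mean log2 CPM of the 2 heat stress libraries (vertical axis) against that of the 2 standard libraries (horizontal axis). The 2369 transcripts called higher under heat stress (red) spread far above the line of equal level, and the 1173 called lower (blue) stay closer to it.

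Groups of transcripts were then formed from libraries other than those of endosperm S2. The first 3 groups take the place of marker genes: each holds the 50 transcripts most restricted to embryo, seed coat or endosperm at S1 with the temperatures pooled. The endosperm list checked the labelled tissue. It took 1.01 and 0.991% of all counts in heat stress libraries, against 1.15 and 1.12% in standard libraries, and none of its 50 members was at 0 in any of the 4 libraries. In the S2 libraries of embryo and seed coat its share was at most 0.00221%. Among its members 2 were higher and 8 lower under heat stress, with a median log2 fold change of −0.29, against 0.01 over all transcripts tested. The 8 lower members fell by between 0.48 and 1.80 on the log2 scale, and their median level was 5.39 CPM in heat stress libraries and 15.1 CPM in standard libraries. The lower share of the list was 16%, against 4.44% over all transcripts tested. Its median log2 fold change was −0.32 to −0.26 when any 1 library was left out.

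Transcripts of the embryo list were far more abundant in heat-stressed endosperm. Their summed share was 3.76 and 4.04% of counts in heat stress libraries, against 1.28 and 1.26% in standard libraries, a ratio of 3.07. The 2 groups did not overlap, and the exact 2-sided permutation test gave p = 0.333, the smallest value that 2 against 2 libraries allow, here and for every other share whose groups do not overlap. Of 50 members 43 were tested and 7 were too low, 32 were higher and none was lower, and the median log2 fold change was 2.91. At an unadjusted p below 0.05 (edgeR), 36 were higher and 0 were lower, against 5267 higher and 4013 lower of all 26400 tested. The members that rose did so by 1.71 to 7.60 on the log2 scale, and their median level was 18.8 CPM in heat stress libraries and 2.59 CPM in standard libraries. At single libraries 9 and 8 of the 50 were at 0 in heat stress libraries, against 12 and 13 in standard libraries, and 39 and 37 had at least 10 counts in heat stress libraries, against 26 and 26.

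The list was also measured in embryo itself. It took 21.25 to 21.57% of counts in the 3 embryo S2 libraries of heat stress and 19.61 to 21.06% in the 3 of standard temperature. For the members with at least 10 CPM in embryo S2, the level in endosperm was a median of 13.9% of that in embryo under heat stress (quartiles 9.75 and 17.1%, 38 members) and 2.29% under standard temperature (quartiles 1.71 and 3.99%, 33 members). In the other stages of endosperm the mean share was 1.59% under heat stress and 0.0367% under standard temperature at S1, 2.29% and 1.39% at S3, and 0.802% and 0.670% at S4. With 50 transcripts, and with 100, the heat stress libraries at S2 held the highest share of the 16 endosperm libraries, but with the first 20 transcripts of the ranking they held 0.146 and 0.159%, below 0.215 to 0.224% in the heat stress libraries at S3. The standard libraries at S2 were below the heat stress libraries with 20 transcripts too, at 0.0300 and 0.0330%. In bulk tissue a larger number of cells of a type and more RNA per cell cannot be told apart, and whether embryo tissue in the dissected samples had a part in the calls was not tested.

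The seed coat list moved in the same direction at a far lower level. It took 0.0292 and 0.0291% of counts in heat stress libraries, against 0.00484 and 0.00448% in standard libraries, a ratio of 6.25. Of its 50 members 39 were tested, 12 were higher and none was lower, with a median log2 fold change of 1.78. Most members were near the floor, with a median level of 0.211 CPM in heat stress libraries and 0.163 CPM in standard libraries. The highest member that rose stood at 130 CPM under heat stress, so that the summed share rests largely on few members. In heat stress libraries 10 and 14 members were at 0, against 20 and 13 in standard libraries. The seed coat itself had 1.84 to 1.86% of its counts in this list at S2 under heat stress and 1.53 to 1.69% under standard temperature, and the median level of a member in endosperm was 1.02% of that in seed coat under heat stress and 0.325% under standard temperature. At S1 the share of this list in endosperm was higher than at S2, with a mean of 0.0568% under heat stress and 0.0344% under standard temperature.

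**Figure D2:**
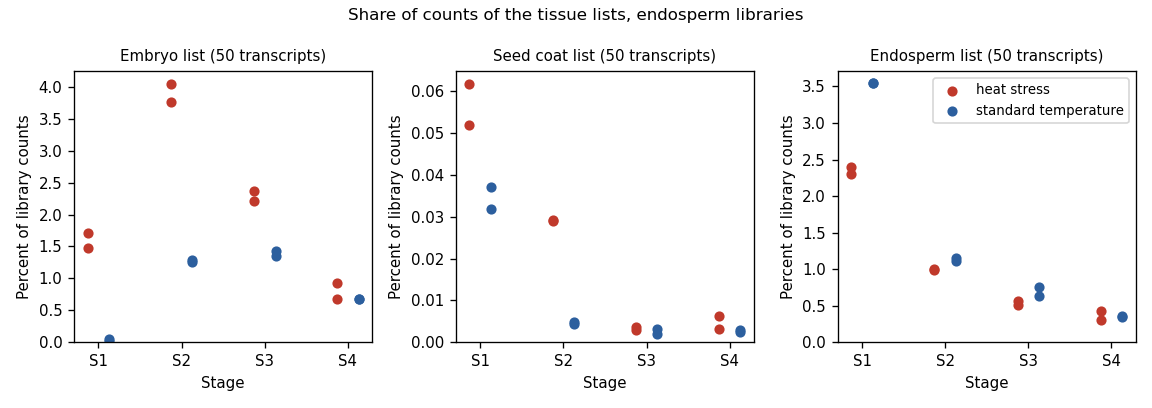
Percent of all counts taken by the embryo list, the seed coat list and the endosperm list (50 transcripts each, separate vertical axes from 0) in every endosperm library by stage, with heat stress in red left of standard temperature in blue. At S2 the embryo list reached 3.76 and 4.04% in heat stress libraries, against 1.28 and 1.26% in standard libraries, and the endosperm list 1.01 and 0.991%, against 1.15 and 1.12%.

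Since the tissue lists hold few transcripts, all transcripts were also sorted by their mean level in embryo S2 relative to the 12 endosperm libraries of the other stages, a rule chosen after the list values had been seen. Of 257 tested transcripts that were at least 8-fold above in embryo, 203 were higher and none was lower in heat-stressed endosperm, and their median log2 fold change was 2.68. Of 1196 transcripts that were 2-fold to 8-fold above, 502 were higher and 6 were lower, with a median of 1.47. For 7348 transcripts within 2-fold of the embryo level, 604 were higher and 98 lower, with a median of 0.10. For 17599 transcripts at least 2-fold below in embryo, 1060 were higher and 1069 were lower, with a median of −0.04. The last class held 44.7% of all higher and 91.1% of all lower transcripts. By the same sorting on seed coat S2, 341 of 1385 transcripts at least 8-fold above in seed coat were higher and 14 were lower, with a median of 0.72.

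The 1738 transcripts at least 2-fold above in embryo S2, tested or not, were then removed before scaling. Of 24936 transcripts tested 2698 were called and 66.5% of these were higher, against 3542 of 26400 before the removal. Without the 6786 transcripts at least 2-fold above in embryo S2 or seed coat S2, 2106 of 20807 tested were called and 60.7% were higher. The increase of a transcript between the temperatures was also set against its whole level in the other tissues under heat stress. Of the 2369 higher transcripts, 292 (12.3%) increased in endosperm by more CPM than either embryo S2 or seed coat S2 contained in all under heat stress. By more than a fraction of 0.2 of both levels, an arbitrary cut, 1130 (47.7%) increased. The part of other tissues in these increases was not tested.

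**Figure D3:**
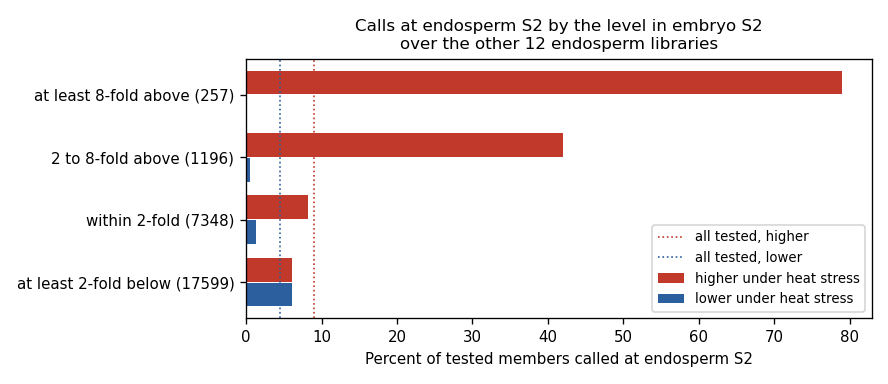
Percent of tested transcripts called higher (red) and lower (blue) under heat stress at endosperm S2, by the level in embryo S2 relative to the endosperm libraries of S1, S3 and S4, with the number tested in brackets and dotted lines for all transcripts (8.97% and 4.44%). The share of higher transcripts was 79% in the class at least 8-fold above in embryo and 6.02% in the class at least 2-fold below.

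Transcripts abundant in endosperm, many of them abundant in embryo too, took a larger share under heat stress at S2. The 10 most abundant transcripts of each library took 14.0 and 14.5% of its counts under heat stress, against 8.88 and 8.69% under standard temperature. The 100 transcripts with the highest mean in the other 12 endosperm libraries took 28.6 and 29.5% in heat stress libraries, against 19.9 and 19.8% in standard libraries. Of these 100, 54 were higher and 3 were lower, with a median log2 fold change of 0.74. Without the 7 that were at least 8-fold above in embryo S2, 48 of 93 were higher. The 54 higher transcripts rose by a median of 1.56 on the log2 scale, and the 3 lower ones fell by between 0.51 and 0.88. In a fit of all 48 libraries 28 of the 100 were higher, where 2132 of 29226 transcripts were called and 78.4% of these calls were higher. The same 100 took a mean of 66.0% of counts in embryo S2 under heat stress and 69.1% under standard temperature. In endosperm their mean share was 19.6% under heat stress and 10.9% under standard temperature at S1. At S3 it was 38.4% and 35.5%, so that a larger share was not particular to heat stress or to S2.

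Transcripts encoded in the organelles were a small part of all libraries, which were enriched for mRNA. The 85 plastid transcripts, which code for parts of the photosynthetic apparatus and of gene expression in the plastid, took 0.0999 and 0.0844% of counts in heat stress libraries, against 0.0636 and 0.0559% in standard libraries. Of 81 tested 18 were higher and none was lower, with a median log2 fold change of 0.46. The mean plastid share of embryo S2 was 0.264% under heat stress and 0.189% under standard temperature, above that of endosperm in both. The share of plastid transcripts called higher was 22.2%, against 8.97% over all transcripts tested. In a fit of all 48 libraries it was 7.14%, where 2132 of all 29226 transcripts were called and 78.4% of these calls were higher. The excess of plastid transcripts was thus small in that fit. Their median log2 fold change was 0.28 to 0.65 when any 1 library was left out. The 72 mitochondrial transcripts took 0.00914 and 0.00825% in heat stress libraries, against 0.0120 and 0.0140% in standard libraries, and of 31 tested none was called by edgeR, with a median of −0.46. At an unadjusted p below 0.05 (edgeR), 9 of the 31 were lower and 0 were higher, against 4013 lower and 5267 higher of all 26400 tested. On the 8 nuclear chromosomes the higher transcripts were 8.14 to 9.68% and the lower ones 3.89 to 4.72% of those tested, near the values over all transcripts.

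The course of maturation was described by the transcripts that changed at least 4-fold in the same direction between S1 and S4 of endosperm at both temperatures. Of 2202 that increased towards S4, 553 were higher under heat stress at S2 and 19 were lower, with a median log2 fold change of 0.51. Their mean log2 CPM at S2 was 1.65 and 1.62 in heat stress libraries, against 1.09 and 1.09 in standard libraries. However, these transcripts already stood higher under heat stress at S1, with 0.50 and 0.53, against −0.22 and −0.17. Scaled to the range between S1 and S4 of the same temperature, their mean at S2 had covered 30.3 and 29.5% of the range in heat stress libraries, against 28.7 and 28.7% in standard libraries.

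Transcripts that decrease in maturation moved in both directions. Of 2897, 425 were higher and 242 were lower at S2 under heat stress, with a median of 0.00, or −0.18 when only library size was scaled. Their mean log2 CPM was 1.51 and 1.44 in heat stress libraries, against 1.21 and 1.20 in standard libraries, so that the mean level was higher under heat stress while the median log2 fold change was 0. They had covered 29.5 and 31.5% of their decline in heat stress libraries, against 40.1 and 40.2% in standard libraries. Among them, 71 were at least 8-fold above in embryo S2, and 60 of these 71 were higher. Of the other 2826, 365 were higher and 242 were lower, with a median of −0.02, and the decline covered was 30.2 and 32.2% in heat stress libraries. The share of higher transcripts was 25.1% in the increasing group and 14.7% in the decreasing group, against 8.97% over all transcripts tested. With 1 library left out, the median log2 fold change of the increasing group was 0.48 to 0.55. The share of lower transcripts in the decreasing group was 8.35%, against 4.44% over all transcripts tested. The median log2 fold change of the decreasing group was −0.06 to 0.00 when any 1 library was left out. The balance of this group turned with library size only, with 13.5% higher and 14% lower, and with at least 10 counts in every library, with 14% higher and 16.6% lower. Over all transcripts, 5264 of 26400 were called with library size only, 32.8% of them higher, and the median log2 fold change was −0.17. The turn with library size only thus went with a shift of all transcripts. With at least 10 counts in every library 2501 of 17270 were called, 62.1% of them higher.

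The heat stress effects at the other stages of endosperm, measured in other libraries, were next described at S2. At S1, 33.1% of the transcripts tested were called, 10.6% at S3 and 5.75% at S4. Of 4672 transcripts higher under heat stress at S1 (17.7% of those tested), 1136 (24.3%) were higher and 191 were lower at S2. Of 4079 lower at S1 (15.5%), 171 were higher and 456 (11.2%) were lower at S2. At S3 6.88% of the transcripts tested were higher and 3.68% lower. Of 1817 higher at S3, 705 (38.8%) were higher at S2 and 22 were lower, and of 972 lower at S3, 362 (37.2%) were lower at S2 and 13 were higher. At S4 3.53% were higher and 2.22% lower, and 157 of the 932 higher transcripts (16.8%) were higher at S2 and 143 of the 585 lower ones (24.4%) were lower at S2. As shares of the S2 calls, 48%, 29.8% and 6.63% of the 2369 higher transcripts were also higher at S1, S3 and S4, and 38.9%, 30.9% and 12.2% of the 1173 lower ones were also lower. The median log2 fold change of the 2369 higher transcripts was 0.72 at S1, 0.46 at S3 and 0.12 at S4, and that of the 1173 lower ones was −0.23, −0.39 and −0.11.

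The differences between the stages were tested in the same fit. The S2 effect differed from the mean of the S1, S3 and S4 effects for 1181 transcripts (4.47% of those tested), of which 537 (2.03%) had a more positive and 644 (2.44%) a more negative effect at S2. Of the 2369 higher transcripts 470 had an effect more positive than this mean and 36 a less positive one, and of the 1173 lower transcripts 256 had a more negative and 1 a less negative effect. These transcripts were picked by the S2 effect in the same 4 libraries, and such picking pushes both splits towards larger S2 effects. Against single stages the S2 effect differed for 4726 transcripts (17.9%) from S1, for 676 (2.56%) from S3 and for 1477 (5.59%) from S4. The count of 1181 was between 468 and 549 when any 1 of the 4 libraries was left out. When only library size was scaled, 32.6% of the differences were in the positive direction, against 45.5%.

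The same stage was compared with embryo and seed coat. In embryo S2, 268 of 21992 transcripts (1.22%) were called between the temperatures, and in seed coat S2 1073 of 25439 (4.22%). Of 132 transcripts higher in embryo (0.6%) 128 were tested in endosperm, where 66 were higher and none was lower, with a median log2 fold change of 0.98. Of 136 lower in embryo (0.618%) 134 were tested, with 17 higher and 20 lower in endosperm. Of 349 transcripts higher in seed coat (1.37%) 315 were tested, with 57 higher and 8 lower in endosperm, and of 724 lower in seed coat (2.85%) 700 were tested, with 52 higher and 103 lower. In all 3 tissues 4 transcripts were higher and 8 were lower. The 4 rose in endosperm by 0.65 to 3.43 on the log2 scale, and the log2 fold changes of the 8 were −1.30 to −0.50.

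The difference between tissues was tested in 1 fit of all 48 libraries. The S2 effect in endosperm differed from that in embryo for 964 of 29226 transcripts (3.3%), and was more positive in endosperm for 845 (2.89%) and more negative for 119 (0.407%). It differed from that in seed coat for 1763 transcripts (6.03%), 1473 more positive (5.04%) and 290 more negative (0.992%) in endosperm. The direction of these differences depended on scaling. With library size only, 40% of the differences from embryo were positive, against 87.7%, and 66.1% of those from seed coat, against 83.6%, while the median over all transcripts moved to −0.38 and −0.11. Without 1 of the 4 libraries 453 to 662 differences from embryo and 971 to 1256 from seed coat were called.

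**Figure D4:**
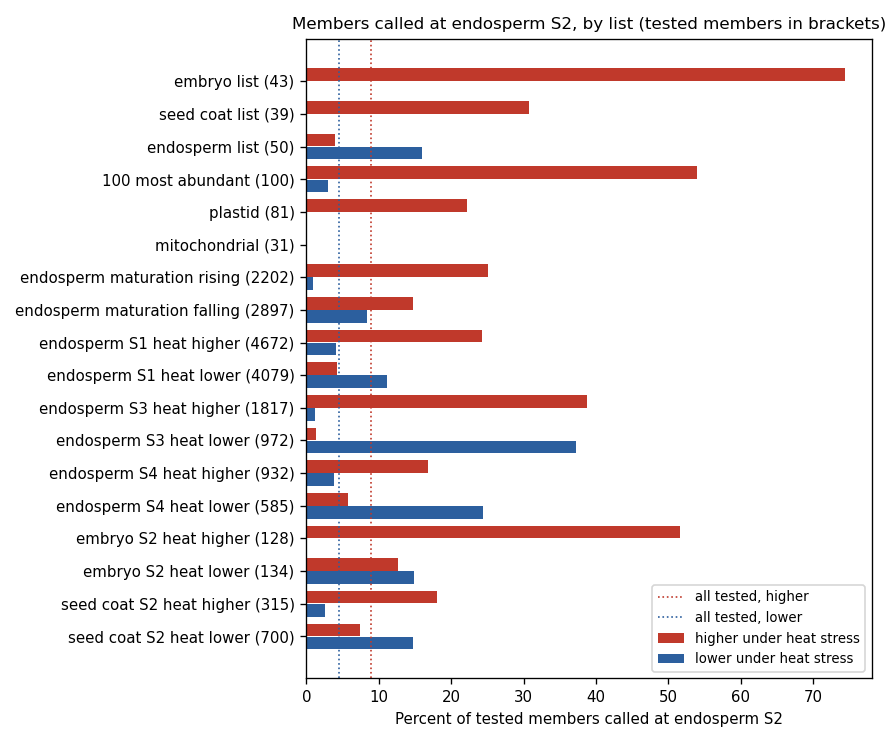
Percent of the tested members of each list (number tested in brackets) that were called higher (red) or lower (blue) under heat stress at endosperm S2, with dotted lines at 8.97% and 4.44% for all transcripts. The embryo list had the highest share of higher members (74.4%) and the transcripts lower at S3 had the highest share of lower members (37.2%) among the lists drawn.

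The heat stress libraries of S2 and the standard libraries of S1 were both taken at 17 DAP, so that age is equal and stage differs. Between them 13522 of 26400 transcripts (51.2%) were called, of which 7005 (26.5%) were higher and 6517 (24.7%) were lower in the heat stress libraries of S2. By stage, with the same heat stress libraries, the count was 3542. With library size only, 32.7% of the calls at equal age were higher, against 51.8%. No comparison of the series has equal age and equal stage.

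The transcripts that changed most were ranked among those called with non-overlapping groups, so that non-overlap was a condition and not a result. They also had at least 1 count in each of the 4 libraries and at least 10 CPM in both libraries of the higher group. This left 1161 higher and 872 lower candidates. The first of the higher ones was MtrunA17_Chr2g0288011, a transcript of 1564 bases from chromosome 2. It had 11.3 and 10.8 CPM in heat stress libraries (218 and 202 counts), against 0.183 and 0.332 CPM in standard libraries (4 and 7 counts). Both heat stress values were far above both standard values, and the log2 fold change was 5.40 (SE 0.63, n = 2 each, edgeR adjusted p = 0.000129). MtrunA17_Chr2g0288011 was also higher under heat stress at S3, with 14.8 and 15.8 CPM, against 2.66 and 0.482 CPM, a log2 fold change of 3.28 (edgeR adjusted p = 0.000888). It belongs to the class 2-fold to 8-fold above in embryo, where it had a mean of 47.4 CPM at S2 under heat stress.

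The second was MtrunA17_Chr5g0397471, a transcript of 1724 bases from chromosome 5. It had 48.9 and 43.0 CPM in heat stress libraries (941 and 804 counts), against 1.14 and 1.28 CPM in standard libraries (25 and 27 counts). Its log2 fold change was 5.24 (SE 0.37, n = 2 each, edgeR adjusted p = 4.95e-06). MtrunA17_Chr5g0397471 belongs to the group that increases in maturation. It had 0.833 and 0.327 CPM at S1 under heat stress, against 0 and 0.122 CPM. It had 1843 and 1727 CPM at S3 under heat stress, against 1407 and 799 CPM, and had 2516 and 1979 CPM at S4, against 2909 and 2869 CPM. The S2 effect of MtrunA17_Chr5g0397471 exceeded that at S3 by 4.55 on the log2 scale (edgeR adjusted p = 0.000284) and that at S4 by 5.60 (adjusted p = 3.50e-05). The differences of MtrunA17_Chr5g0397471 from the S1 effect (2.13, edgeR adjusted p = 0.476) and from the mean of the other 3 stages (4.09, edgeR adjusted p = 0.043) were not called. Its mean in embryo S2 under heat stress was 6.66 CPM, below that in endosperm.

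Among the lower transcripts the first was MtrunA17_Chr4g0046751, with 986 bases on chromosome 4. It had 8.20 and 5.99 CPM in heat stress libraries (158 and 112 counts), against 71.3 and 68.7 CPM in standard libraries (1563 and 1450 counts). The log2 fold change was −3.30 (SE 0.46, n = 2 each, edgeR adjusted p = 0.0011), and the call was lost without heat stress replicate 1 (adjusted p = 0.0112) and without heat stress replicate 2 (adjusted p = 0.0147), and kept in the other alternatives (9.37e-19 to 0.00737). MtrunA17_Chr4g0046751 was lower at S1 as well, with 6.94 and 4.90 CPM under heat stress, against 61.8 and 44.3 CPM, a log2 fold change of −3.16 (edgeR adjusted p = 0.000553).

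The second of the lower ones was MtrunA17_Chr1g0150811, with 799 bases on chromosome 1. It had 2.60 and 2.36 CPM in heat stress libraries (50 and 44 counts), against 17.2 and 18.4 CPM in standard libraries (378 and 388 counts). The log2 fold change was −2.84 (SE 0.50, n = 2 each, edgeR adjusted p = 0.00332). The call for MtrunA17_Chr1g0150811 was lost in each of the 4 fits without 1 library, with an adjusted p of 0.0304 and 0.0295 without heat stress replicate 1 or 2 and of 0.0161 and 0.0185 without standard replicate 1 or 2, and kept in the other alternatives (8.94e-13 to 0.00936). At S1 it was lower too, with 1.34 and 1.45 CPM under heat stress, against 12.5 and 8.46 CPM, a log2 fold change of −2.90 (edgeR adjusted p = 0.00244). At S4 MtrunA17_Chr1g0150811 had 43.9 and 22.5 CPM under heat stress, against 47.3 and 44.0 CPM, and the difference was not called (log2 fold change −0.46, edgeR adjusted p = 0.471).

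**Figure D5:**
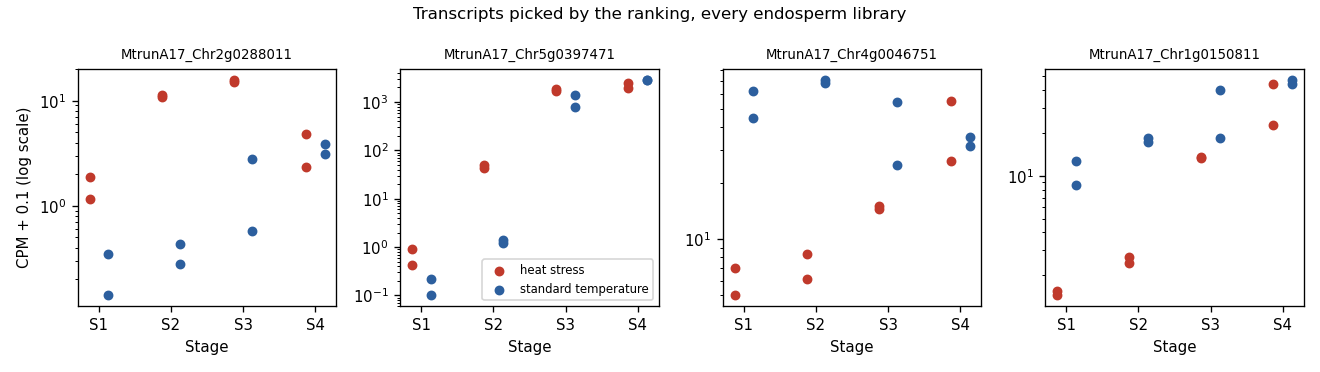
CPM plus 0.1 on a log axis of the 4 transcripts picked by the ranking in each of the 16 endosperm libraries, by stage, with heat stress in red left of standard temperature in blue. At S2 the heat stress points of MtrunA17_Chr2g0288011 and MtrunA17_Chr5g0397471 lie above the standard points, and those of MtrunA17_Chr4g0046751 and MtrunA17_Chr1g0150811 lie below them.

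Within the 4 libraries of endosperm S2, some transcripts were seen at only 1 temperature. Of these, 18 had at least 10 counts in both heat stress libraries and 0 in both standard libraries, and 10 of the 18 were called. Against the floor of 3 counts per library they were at least 3.50-fold to 20.8-fold higher under heat stress. In 11 of the 18 all 3 heat stress libraries of embryo S2 also had at least 10 counts. In the opposite direction 12 transcripts had at least 10 counts in both standard libraries and 0 in both heat stress libraries, 6 of them were called, and they were at least 3.83-fold to 15.5-fold lower under heat stress. In both sets none was at 0 in all of the other 12 endosperm libraries. Of the 18, 12 had at least 10 counts in a standard library of another stage. Of the 12 in the opposite direction, 9 had at least 10 counts in a heat stress library of another stage. These sets are therefore not restricted to 1 temperature over the stages.

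Higher and lower transcripts differed in length. The transcripts that rose had a median length of 1568 bases and those that fell of 2262 bases, against 1656 bases over all tested. Below 1066 bases, from there to 1656, from there to 2379, and above 2379 bases, the median log2 fold change was 0.05, 0.08, 0.02 and −0.09. The class above 2379 bases held 6594 of the 26400 transcripts tested. In it 450 (6.82%) were higher and 545 (8.27%) were lower, against 8.97% and 4.44% over all transcripts tested. It held 19% of all higher and 46.5% of all lower transcripts. Between replicates of 1 temperature the medians by length were within −0.02 and 0.01. The same class had a median of 0.03 at S1, −0.08 at S3 and −0.07 at S4. With a smooth trend on length removed, which was added after these values had been seen, 3267 transcripts were called at S2 and 63.2% were higher.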

How the data were processed

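After trimming, the authors assigned single-end reads to the A17 reference transcriptome with Salmon and deposited the estimated counts of each transcript in 48 libraries, neither normalized nor pooled. Of the nonzero values 29.7% are not whole, because a read matching several transcripts is shared out among them, and near-identical copies are therefore uncertain. The deposited table also holds other columns, the length and effective length in bases, of which the length was used. No columns of other samples were present.

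Counts were rounded and tested with edgeR 4.0.16 (limma 3.58.1, R 4.3.3): filterByExpr with a minimum count of 10 and a minimum total of 15, TMM scaling, a robust quasi-likelihood fit of 8 groups over the 16 endosperm libraries, and Benjamini-Hochberg adjustment over all transcripts tested. An adjusted p-value below 0.01 was called, the limit used in the study. Tissues were compared in 1 fit of 20 groups over 48 libraries, and embryo and seed coat calls come from fits of their own libraries. ImpulseDE2, a time course method of the study, gives no result for S2 and was not run. CPM of single transcripts are TMM-scaled; shares and levels set against other tissues use plain totals, with a pseudocount of 0.5 CPM in the classes. PCR reads that carry no molecular identifier need not be separate molecules.

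The named transcripts are the first 2 higher and 2 lower by log2 fold change among those called, not overlapping, with at least 10 CPM in both libraries of the higher group and at least 1 count in each of the 4 libraries. The comparison, lists and rules were chosen with earlier results of these data known. The classes by embryo and seed coat level, the removal of transcripts and the length trend were chosen after seeing the data. Alternatives were RLE or library size scaling, filters, thresholds, DESeq2 1.42.0, a replicate block, other sets of libraries and leaving out each library. The scripts were tested on simulated data. No genome was given, and sequences, genome positions and gene names were not analysed here.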

Additional observations from a re-analysis of the deposited data

Results flagged for a closer look

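The heat stress effect at endosperm S2 differed from the effect in other groups of libraries by the edgeR test of the difference itself (adjusted p below 0.01). It differed from the mean effect at S1, S3 and S4 for 1181 transcripts, from the S1 effect for 4726, from the S3 effect for 676 and from the S4 effect for 1477. It differed from the embryo S2 effect for 964 transcripts and from the seed coat S2 effect for 1763. These comparisons share the 4 endosperm S2 libraries, and their counts are not independent of each other.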

How the results depend on the processing

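The 3542 calls at S2 became 1750 with a minimum of 2-fold, 6174 at an adjusted p below 0.05, 2132 in a fit of all 48 libraries, 6250 in a fit of the 4 libraries alone and 2106 without transcripts at least 2-fold above in embryo S2 or seed coat S2 (chosen after seeing the data), and 1545 to 1964 without 1 library. DESeq2 called 3089, RLE scaling 3527. The difference from the other stages (1181) was 2731 at 0.05, 4726 against S1, 676 against S3 and 468 to 549 without 1 library. The difference from embryo (964) was 1839 at 0.05, 475 with at least 10 counts in every library, 3478 with the S2 libraries alone and 453 to 662 without 1 library, and that from seed coat (1763) was 3181, 970, 4454 and 971 to 1256. At 17 DAP 7968 of 13522 calls were at least 2-fold. In the fit of all 48 libraries the share of members higher was 28% for the 100 most abundant and 7.14% for plastid transcripts. The share of the endosperm list lower was 6% there. Over all 29226 transcripts of that fit, 78.4% of the 2132 calls were higher. With at least 10 counts in every library, 0% of the endosperm list was lower (15 tested) and 100% of the seed coat list was higher (3 tested). In the fit of 4 libraries 6250 of all 23108 transcripts tested were called, and 57.8% of these calls were higher. Against this larger number of calls, 39.6% of the endosperm list was lower in that fit. The members higher were 81.2% of the seed coat list, 45.2% of the increasing and 23.3% of the decreasing maturation group. Without 1 library these shares were 6% to 10%, 17.4% to 21.7%, 14.9% to 18.1% and 8.66% to 10.9%, and 11% to 17.1% for plastid transcripts. Fewer of all transcripts were called without 1 library as well, so a smaller share there is not by itself particular to a list. The cause of these changes in the list shares was not tested, apart from the fewer libraries or transcripts. The 4 named transcripts kept their direction throughout. Same-numbered replicates did not deviate together (correlations of −0.04 to 0.04). This cannot exclude that same-numbered samples shared plants or a harvest, because it measures only a deviation common to many transcripts. The replicate block gave 3473 calls at S2, 1174, 911 and 1709 for the 3 differences, and 13393 at 17 DAP. With 2 libraries a group, a change that was not called is not shown to be absent.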

Other observations

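Neighbouring transcripts were called together. Of transcripts higher under heat stress at S2, 16.1% were followed by another higher transcript at the next tested identifier of the chromosome, against 8.96% of all such identifiers, and of the lower ones 10.2% were followed by another lower one, against 4.47%. There were 59 runs of at least 3 higher transcripts in a row, with 195 transcripts and at most 6 in a run, and 15 runs of lower ones, with 48 transcripts and at most 4. Transcripts that differed by 10 in the number of their identifier, the step between next loci, gave 17.5% and 12.1%. Neighbours that are near-identical copies share reads in the quantification, and their part in these values was not tested.

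The groups that change at least 4-fold during embryo maturation were also measured in endosperm S2. Of 2272 transcripts that increase between S1 and S4 of embryo, 2144 were tested, and 322 (15%) were higher and 60 (2.8%) were lower under heat stress, with a median log2 fold change of 0.15. Of 3711 that decrease, 3183 were tested, and 582 (18.3%) were higher and 140 (4.4%) were lower, with a median of 0.17. Over all transcripts tested the shares were 8.97% higher and 4.44% lower, so that the lower share of the decreasing group was near that of all.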
